A study of Homo sapiens with 4 samples.

Results

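The effect of adding the GSK3 inhibitor CHIR99021 to BMP4-treated human embryonic stem cells (hESCs) was measured as the difference between 2 arrays, BMP4 and CHIR99021 minus BMP4 alone. Each gene was represented by its probe with the highest mean over all 4 arrays of the series. Genes whose chosen probe was detected on either of the 2 arrays (detection p below 0.01) were compared, 10732 of 20046 named genes. The cells were HuES6, an established hESC line, replated as single cells on Matrigel in medium conditioned by mouse embryonic fibroblasts. They were then kept in serum replacement medium, to which Activin A (5 ng/ml) and FGF2 (20 ng/ml) had been added in all groups. Stimulation lasted 4 h, with 20 ng/ml BMP4 in one group, 5 µM CHIR99021 in another and both factors in a further group, and the remaining group was left untreated. Each of the 4 groups holds 1 Illumina array of 1 cell line, so no difference has a replicate check and no p-value is given.

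CHIR99021 blocks GSK3, the kinase that marks beta-catenin for destruction, so that beta-catenin gathers in the nucleus and acts with TCF and LEF factors on WNT target genes. Many of those targets are themselves brakes on the pathway. BMP4 acts through receptor kinases and SMAD proteins on another set of genes, among them the ID and MSX families. In hESCs both pathways, together with Activin and Nodal signaling, are known to drive exit from pluripotency towards the primitive streak, the site where mesoderm and endoderm form.

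The WNT targets SP5, AXIN2, NKD1, CDX1, CDX2 and LEF1 were higher when CHIR99021 was added on top of BMP4, by at least 22.5-fold for SP5. So were the streak genes EOMES, NODAL and MIXL1. MSX1 (16.9-fold) and ID2, which also read higher with each factor alone than in untreated cells, were higher too. Lower levels were seen for ERRFI1, CCN1, CCN2, ANKRD1, PDGFB, IL6 and LEFTY1, between 2.23-fold and 3.74-fold. The size rule used throughout counts a gene as higher or lower where its normalized log2 intensities on the 2 arrays differ by 1 or more. By this rule 37 genes (0.345% of those compared) were higher and 50 genes (0.466%) were lower. Differences are those of bulk RNA, in which fewer cells that express a gene and less RNA per cell cannot be told apart.

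**Figure D1:**
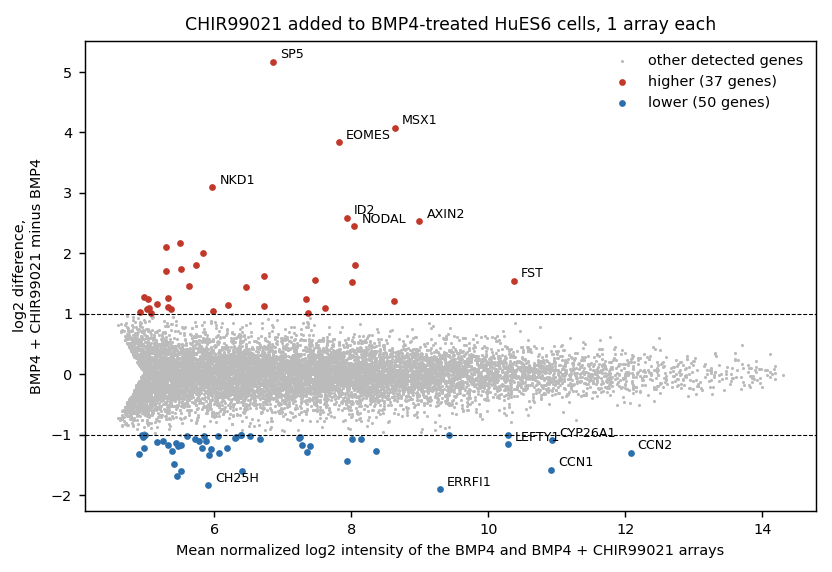
Each point is 1 of the 10732 genes, with the mean normalized log2 intensity of the BMP4 array and the combined array on the x axis and the log2 difference between them on the y axis; dashed lines mark differences of 1 and -1. The 37 higher genes (red) reach 5.17, while none of the 50 lower genes (blue) reaches -2.

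Fewer genes were higher than lower under the main scaling, and this order turned with an offset of 50 (19 higher and 10 lower), without background correction (11 and 6) and at a size of 1.5. Differences of at least 1.5 were found for 18 higher and 6 lower genes, and 10 higher genes but no lower gene reached 2. The median over all genes was 0.00, the central 95% ran from -0.65 to 0.62, and 9532 genes (88.8%) differed by less than 0.5. Many called genes lay close to the limit. Just inside it, between 1 and 1.1 in size, were 8 higher and 20 lower genes, and just outside it, between 0.9 and 1, were 11 higher and 17 lower genes. Of the higher genes 19 were not detected on the BMP4 array, and of the lower genes 15 were not detected on the combined array, so that their folds are lower bounds. That bound was under 2-fold for 10 of the higher genes, among them DKK1 and NOTUM, and for 8 of the lower genes, which passed the size rule only through a value below detection. At the limit of detection the values were near 5 on the log2 scale: the 244 probes just inside the detection limit (detection value 0.00909) had a median of 4.98 on the brighter array, and the 113 just outside it (0.0104) had 4.96.

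The arrays were alike in brightness, and BMP target genes separated those labelled BMP4 from the rest. The raw median intensity of the 4 arrays lay between 88.7 and 93.6, and the number of detected probes between 15980 and 16762. ID1, an inhibitor of differentiation and a direct SMAD target, read 9.43 in untreated cells, 12.36 with BMP4, 8.43 with CHIR99021 and 12.38 with both. Both BMP4-treated arrays thus stood far above the other arrays, and the same held for ID3 and SMAD6. The hESC regulator POU5F1 (11.51 untreated, 11.39 with BMP4, 11.55 with CHIR99021 and 11.42 with both) was detected at like levels on all arrays. Several markers of other cells were not detected on either array compared. Among them were DCN and LUM of fibroblasts, PAX6 and SOX1 of neural cells, and SOX17 and FOXA2 of endoderm. The same held for CGA and GCM1 of trophoblast and for PTPRC and PECAM1 of blood and endothelium. Other markers of these cells were detected on at least 1 of the arrays. These were COL1A1 (0.01), COL1A2 (-0.38), COL3A1 (-0.60) and THY1 (-0.28) of fibroblasts, NES of neural cells (-0.63), AFP of endoderm (-0.15), HLA-G of trophoblast (0.20) and CDH5 of endothelium (-0.22), and their part in the results was not tested. On the BMP4 array NES (11.4), THY1 (10.5), COL1A2 (9.7), COL1A1 (9.0) and AFP (8.5) were bright. CDH5 (6.0), HLA-G (5.4) and COL3A1 (5.3) were dimmer there.

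Promoter sequences are shown for 4 called genes because the letters that TCF and LEF factors are known to bind, and those that TEAD factors are known to bind, recur in them. SP5 and DKK1 were taken from the WNT targets that were higher, and CCN2 and ANKRD1 from the YAP-TEAD targets that were lower. Each run is the RefSeq sequence (GRCh38.p14) from 250 bases before to 50 bases after the first listed start of the gene, read 5′ to 3′ along the gene. Capitals mark CTTTGA or CTTTGT (the TCF/LEF core) and CATTCC (the TEAD core) on either strand, so that CTTTGA on the opposite strand appears as TCAAAG, while CTTTGT appears there as ACAAAG, and the TEAD core appears there as GGAATG. The genes were picked with these matches known.
SP5 (chr2:170715087-170715386, plus strand): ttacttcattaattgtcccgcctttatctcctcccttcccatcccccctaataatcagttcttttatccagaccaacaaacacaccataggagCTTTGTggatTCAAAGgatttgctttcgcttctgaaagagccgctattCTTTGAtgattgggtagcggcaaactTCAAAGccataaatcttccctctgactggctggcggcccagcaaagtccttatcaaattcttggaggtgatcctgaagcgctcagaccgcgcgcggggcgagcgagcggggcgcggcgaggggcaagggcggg
DKK1 (chr10:52314031-52314330, plus strand): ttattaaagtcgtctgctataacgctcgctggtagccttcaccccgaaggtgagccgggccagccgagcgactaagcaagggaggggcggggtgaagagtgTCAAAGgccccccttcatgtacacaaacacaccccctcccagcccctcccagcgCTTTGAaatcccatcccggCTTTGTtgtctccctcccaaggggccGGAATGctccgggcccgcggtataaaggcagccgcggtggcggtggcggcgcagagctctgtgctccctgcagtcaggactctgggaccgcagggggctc
CCN2 (chr6:131951323-131951622, minus strand): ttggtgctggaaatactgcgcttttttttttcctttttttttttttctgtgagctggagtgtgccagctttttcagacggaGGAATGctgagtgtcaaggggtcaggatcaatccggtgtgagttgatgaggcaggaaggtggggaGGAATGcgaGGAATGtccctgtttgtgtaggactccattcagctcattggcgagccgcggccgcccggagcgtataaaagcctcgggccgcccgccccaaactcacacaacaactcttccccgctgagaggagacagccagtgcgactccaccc
ANKRD1 (chr10:90921038-90921337, minus strand): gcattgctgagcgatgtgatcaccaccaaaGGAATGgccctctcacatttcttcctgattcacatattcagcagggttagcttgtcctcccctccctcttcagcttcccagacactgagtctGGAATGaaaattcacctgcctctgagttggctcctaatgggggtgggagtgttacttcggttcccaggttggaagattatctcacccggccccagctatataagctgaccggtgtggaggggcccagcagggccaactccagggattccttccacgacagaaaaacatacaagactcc

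The SP5 window held 4 TCF/LEF cores, beginning 157, 147, 109 and 83 bases before the start, and the DKK1 window held 3, beginning 149, 95 and 76 bases before it. CCN2 had 3 TEAD cores 169, 104 and 95 bases before its start, ANKRD1 had 2 at 220 and 128 bases, and DKK1 had 1 at 50 bases. Promoters were listed for 67 of the 87 called genes. A TCF/LEF core was found in 9 of 26 promoters of higher genes (34.6%), in 11 of 41 promoters of lower genes (26.8%), in 17.8% of the 8734 promoters of all genes compared and in 26.3% of the 27305 promoters of the whole table. A TEAD core was found in 3 of 26 (11.5%), in 4 of 41 (9.76%), in 10.5% and in 14.0% of these promoters. The lower genes with a TEAD core were ANKRD1, CCN2, FLRT3 and THBS1, and the higher genes with a TCF/LEF core included CDX2, DACT1, LBH and MIXL1 beside SP5 and DKK1. The window of the WNT target LEF1 held no TCF/LEF core, and that of the YAP-TEAD target AJUBA held no TEAD core. These shares describe the letters of the windows and were not tested.

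Among the WNT targets, feedback genes were the most prominent. SP5, a zinc finger repressor that acts downstream of beta-catenin, read 4.25 in untreated cells, 4.28 with BMP4, 9.79 with CHIR99021 and 9.45 with both. It was not detected on the arrays without CHIR99021, so its folds are lower bounds, at least 22.5-fold with BMP4 and at least 29.1-fold without it. AXIN2, the inducible scaffold of the beta-catenin destruction complex, read 7.96 untreated, 7.73 with BMP4, 10.36 with CHIR99021 and 10.26 with both, a 5.77-fold difference in the presence of BMP4 and a 5.28-fold difference in its absence. NKD1, which binds Dishevelled and dampens WNT signaling, read 4.35, 4.43, 7.05 and 7.52 in the same order and was at least 5.90-fold higher. For these 3 genes the arrays with CHIR99021 stood apart from those without it, whether or not BMP4 was present.

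DACT1, another Dishevelled-binding regulator, read 7.60 untreated, 7.15 with BMP4, 9.56 with CHIR99021 and 8.97 with both, and was 3.51-fold higher on the combined array than on the BMP4 array. LEF1, a DNA-binding partner of beta-catenin, was detected only on the arrays with CHIR99021 (5.91 alone and 6.39 with BMP4, against 4.31 and 4.65 without it) and was at least 2.70-fold higher. A second probe of each of these genes also passed the size rule, with differences of 1.51 for DACT1 and 1.91 for LEF1. DKK1, the secreted LRP5/6 antagonist, was dim throughout. It read 4.78 untreated, 4.33 with BMP4, 5.03 with CHIR99021 and 5.61 with both, and neither array without CHIR99021 detected it. It was at least 1.57-fold higher in BMP4-treated cells and at least 1.07-fold higher in cells without BMP4, and these bounds do not show how far the differences lie apart. NOTUM, a secreted enzyme that strips the lipid from WNT proteins, was detected on the combined array alone, at 5.89 against 4.77 on the BMP4 array, 4.64 with CHIR99021 alone and 4.59 in untreated cells. Its second probe differed by 1.10, the first by 1.12.

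In all, 9 of the 21 detected genes of a list of WNT targets and feedback genes passed the size rule upwards and none downwards. Over all genes compared 0.345% were higher and 0.466% lower. Of the 9 genes, 7 were not detected on the BMP4 array. These entered the comparison only through the combined array, so the detection rule favoured a higher reading. The list's median was 0.71 against 0.00 over all genes. With genes not detected on the BMP4 array set at their lower bound the median was 0.54, and over the members detected on both arrays it was 0.30. The other 12 members included WIF1 (0.71) and ZNRF3 (0.75), both antagonists of WNT signaling, and NKD2 (0.54), CCND1 (0.30) and MYC (-0.65). ZNRF3, a ubiquitin ligase that removes WNT receptors, differed by more without BMP4 (1.20). DKK4, RNF43, LGR5, APCDD1 and KREMEN1 were not detected on either array.

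Genes for the signal-transducing parts of the pathway seldom passed the size rule, as was so of all genes compared (0.345% higher and 0.466% lower). None of 17 detected genes of the destruction complex and of the TCF partners passed the size rule (median 0.00, range -0.46 to 0.71), among them CTNNB1 (beta-catenin itself, -0.24), GSK3B, the target of the compound (0.01), and AXIN1 (0.00). Of 20 detected WNT ligands and receptors only FZD4 passed. This receptor for WNT ligands and norrin read 7.74 untreated, 8.0 with BMP4, 6.85 with CHIR99021 and 6.71 with both, and was 2.45-fold lower on the combined array than on the BMP4 array. WNT3, the ligand required for streak formation in the mouse (0.86), and WLS, the carrier that brings WNT ligands to the cell surface (0.85), lay just under the limit.

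**Figure D2:**
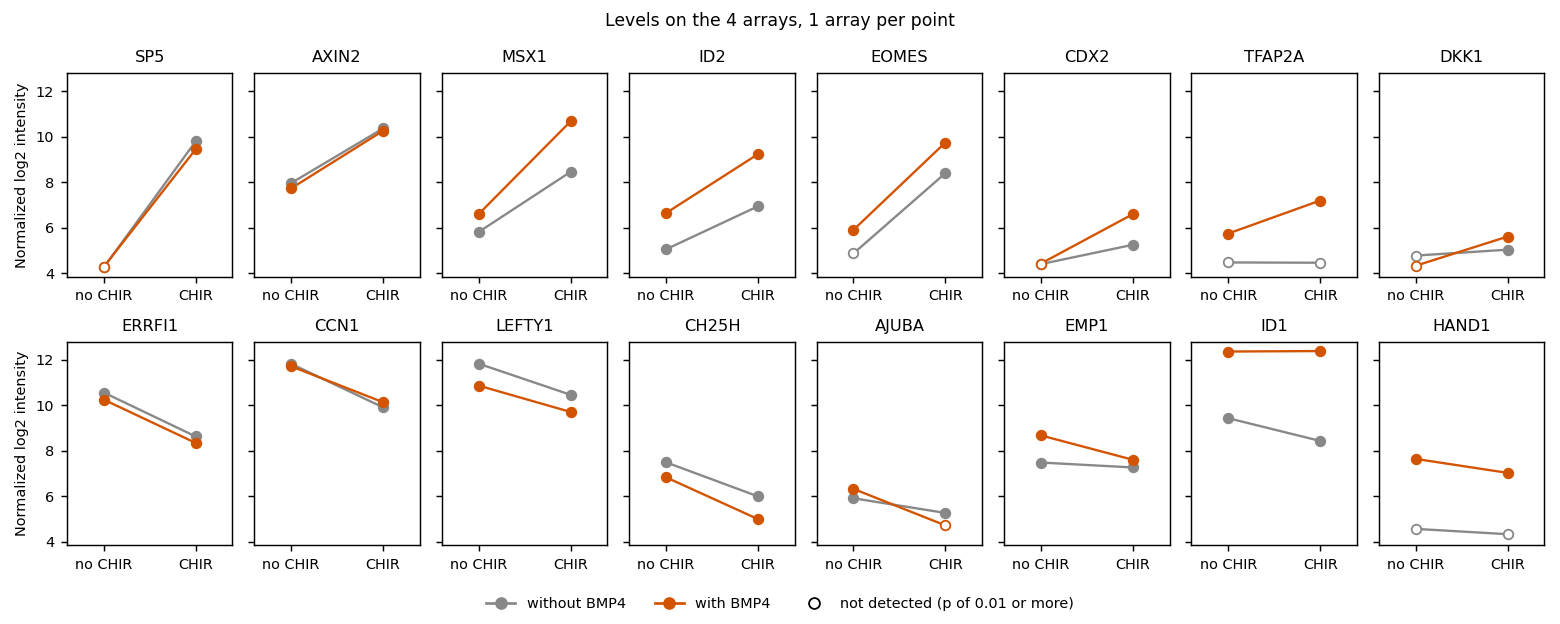
Normalized log2 intensity (y axis) of 16 genes without and with CHIR99021 (x axis), in cells without BMP4 (grey) and with BMP4 (orange), 1 array per point; open points were not detected. AXIN2 has nearly the same slope in both, MSX1, ID2, CDX2 and TFAP2A are highest on the combined array, and ID1 stays at 12.36 and 12.38 with BMP4.

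Some genes of the BMP-SMAD list were highest under both factors and past the size rule. Among these was MSX1, a homeobox repressor of mesoderm and neural crest, which read 5.81 untreated, 6.59 with BMP4, 8.45 with CHIR99021 and 10.67 with both, and differed 16.9-fold between the BMP4-treated arrays and 6.25-fold between the others. ID2, which blocks basic helix-loop-helix factors, read 5.05, 6.64, 6.94 and 9.23 in that order, a 6.01-fold difference with BMP4 and a 3.71-fold difference without it. Its second probe differed by 1.99 with BMP4. Both genes were thus detected on all 4 arrays and stood highest on the combined array. Against untreated cells, MSX1 differed by 2.64 in log2 with CHIR99021 alone and by 0.79 with BMP4 alone. For ID2 these differences were 1.89 and 1.59. The paper counts MSX1 among the WNT targets induced early.

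TFAP2A, a transcription factor of surface ectoderm, amnion and neural crest, was detected only where BMP4 was present. It read 4.47 untreated, 5.74 with BMP4, 4.46 with CHIR99021 and 7.19 with both, a 2.73-fold difference in BMP4-treated cells and a log2 difference of -0.01 in cells without BMP4. MSX2, the sister gene of MSX1, was detected on the combined array alone at 5.27 and differed by 0.90, under the limit. In contrast, ID1 (0.02), SMAD6 (0.11) and SMAD7 (-0.28), the latter 2 inhibitory SMADs, and BAMBI, a pseudoreceptor (-0.23), stayed near their level with BMP4 alone. ID3 differed by 0.41, and of the 14 detected genes of the BMP-SMAD list 11 were above 0 and 3 below. HAND1, a factor of lateral mesoderm and extraembryonic cells, was at 7.64 with BMP4 and 7.03 with both (-0.61) and was not detected without BMP4. Beside shares of 0.345% higher and 0.466% lower over all genes compared, 3 of 14 detected genes of the BMP-SMAD list were higher and none was lower. Their median was 0.26, or 0.15 with genes not detected on the BMP4 array at their bound and 0.03 over members detected on both arrays.

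BMP ligands, receptors and antagonists had a median of -0.00, and 1 of 16 was higher, beside 0.345% of all genes compared. This was FST, the secreted antagonist of Activin and of some BMPs, which read 9.44 untreated, 9.60 with BMP4, 11.10 with CHIR99021 and 11.15 with both, a 2.92-fold difference that a second probe also showed (1.81). It was similar without BMP4, at 3.16-fold. BMP7 (0.91) and TWSG1, an extracellular modulator of BMP ligands (0.76), were below the limit, and their differences without BMP4 were 0.12 and -0.41.

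Among the streak genes EOMES stood out. This T-box factor, which directs mesoderm and endoderm formation, was not detected in untreated cells (4.87) and read 5.90 with BMP4, 8.40 with CHIR99021 and 9.74 with both, a 14.3-fold difference in BMP4-treated cells and at least 11.0-fold in cells without BMP4. NODAL, the TGF-beta family ligand that patterns the streak, read 7.11, 6.82, 9.27 and 9.27 in that order and was 5.46-fold higher with BMP4 and 4.48-fold higher without it. MIXL1, a homeobox factor of the streak, was detected only on the arrays with CHIR99021 (6.12 alone and 6.84 with BMP4) and was at least 3.70-fold higher. These 3 were the genes past the limit among 8 detected members of the streak list, while 0.345% of all genes compared were higher. The list's median was 0.83, or 0.50 with genes not detected on the BMP4 array at their bound. It was 0.47 over members detected on both arrays and 0.28 at detection p below 0.05. TBXT, the Brachyury gene, was detected on the combined array alone at 5.10, a difference of 0.81. A further 18 listed streak and mesoderm genes, among them GSC, MESP1, TBX6 and FOXA2, were not detected on either array.

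The caudal homeobox genes, which specify posterior identity, differed from each other. CDX1 was detected on both arrays with CHIR99021 at like levels (6.29 alone and 6.36 with BMP4) and was at least 2.64-fold higher. CDX2 read 4.40 untreated, 4.42 with BMP4, 5.25 with CHIR99021 and 6.59 with both, at least 3.11-fold higher with BMP4 and at least 1.24-fold higher without it. CYP26A1, the enzyme that degrades retinoic acid, went the other way and read 11.19, 11.48, 10.08 and 10.39 in the same order, 2.13-fold lower in BMP4-treated cells and 2.16-fold lower in the others. A second probe of CYP26A1 passed the size rule as well (-1.11), and another gave -0.88. The 4 detected members of the CDX and HOX list, with CDX4 at 0.24, had a median of 1.18. It was 0.82 with CDX1 and CDX2 at their bound and 0.25 at detection p below 0.05, and it turned to -0.43 where both arrays had to detect a gene, which leaves out CDX1 and CDX2.

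Of the Activin and Nodal targets, LEFTY1, a secreted Nodal antagonist, was lower although NODAL, the ligand it opposes, was higher. It read 11.83 untreated, 10.86 with BMP4, 10.46 with CHIR99021 and 9.70 with both, and was 2.23-fold lower on the combined array than on the BMP4 array. LEFTY2, its neighbour and close paralog, differed by -0.05. With FST and NODAL higher and LEFTY1 lower, the 10 detected members of this list had a median of -0.10.

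**Figure D3:**
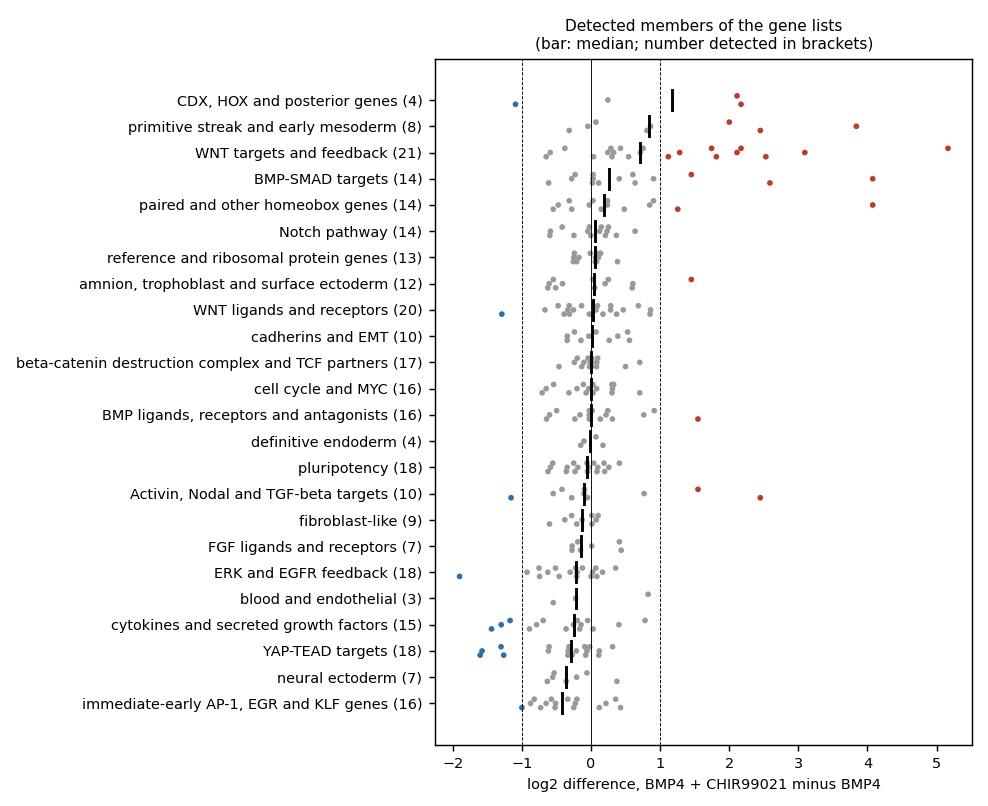
Log2 difference between the combined array and the BMP4 array (x axis) for the detected members of each gene list (y axis), 1 point per gene, with a bar at the median; red and blue points passed the size rule. WNT targets (median 0.71) and streak genes (0.83) lie to the right, with 0.30 and 0.47 over members detected on both arrays. Lists to the left include immediate-early genes (-0.43), neural ectoderm (-0.36), YAP-TEAD targets (-0.30), cytokines (-0.25) and ERK feedback (-0.22).

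The lower genes were led by ERRFI1, the feedback inhibitor of the EGF receptor, which read 10.56 untreated, 10.25 with BMP4, 8.63 with CHIR99021 and 8.34 with both. It was 3.74-fold lower with BMP4 and 3.81-fold lower without it. It was the only gene past the limit among 18 detected genes of ERK and EGFR feedback (median -0.22), where HBEGF, an EGF receptor ligand (-0.93), lay just outside. Of all genes compared 0.466% were lower.

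YAP and TEAD targets had 4 of 18 detected members lower and none higher, the most lower genes of any list. Over all genes compared 0.466% were lower and 0.345% higher. The list was written with earlier results of these data known. CCN1 and CCN2, secreted matrix proteins induced by YAP and by stretch, were bright on all arrays. CCN1 read 11.82 untreated, 11.71 with BMP4, 9.91 with CHIR99021 and 10.13 with both, a 2.98-fold lower level in BMP4-treated cells. CCN2 read 12.85, 12.73, 11.26 and 11.42 in the same order and was 2.47-fold lower, with -1.52 at a second probe. The difference was larger without BMP4 for both genes, at 3.76-fold and 3.01-fold.

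ANKRD1, a muscle and stress-responsive ankyrin repeat protein, read 8.45 untreated, 8.99 with BMP4, 7.0 with CHIR99021 and 7.73 with both, a 2.40-fold lower level. AJUBA, a LIM protein of cell junctions that restrains LATS kinases, read 5.91, 6.32, 5.27 and 4.72 in the same order, where the last was not detected, and was at least 2.54-fold lower. Over the whole list 15 of 18 members were below 0, with a median of -0.30. Members that did not pass included LATS2 (-0.62), AMOTL2 (-0.32) and YAP1 itself (-0.02).

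Immediate-early genes, which cells switch on within minutes of growth factor or stress signals, had a median of -0.43, with 12 of 16 below 0. KLF6, a zinc finger factor, was the only one past the limit (9.73 untreated, 9.93 with BMP4, 8.65 with CHIR99021 and 8.93 with both, 2.00-fold lower). Of all genes compared 0.466% were lower. JUN (-0.88) and FOSL2 (-0.82), subunits of AP-1, and MYC (-0.65) were below 0 but within the limit, and FOS (0.22) and EGR1 (0.36) were above 0.

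Secreted factors were also among the lower genes. PDGFB, a growth factor chain for mesenchymal cells, read 8.92 untreated, 8.65 with BMP4, 7.65 with CHIR99021 and 7.21 with both, 2.71-fold lower, and of its further probes 1 passed the size rule too (-1.05) while another gave -0.77. IL6, an inflammatory cytokine, read 7.30, 6.72, 5.92 and 5.42 in that order (2.46-fold lower), and its relative IL11 read 7.93, 7.87, 6.88 and 6.70 (2.25-fold lower). In all 3 the arrays with CHIR99021 were below both arrays without it. They were the genes past the limit among 15 detected cytokines and growth factors (median -0.25), while 0.466% of all genes compared were lower. CXCL1, a chemokine that attracts neutrophils, was at least 2.27-fold lower (6.16 with BMP4 and 4.67, not detected, with both).

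Of the lower genes outside the lists, CH25H, which makes 25-hydroxycholesterol, had the largest difference after ERRFI1. It read 7.49 untreated, 6.83 with BMP4, 6.0 with CHIR99021 and 5.0 with both, 3.57-fold lower with BMP4. HBP1, an HMG-box repressor that is known to restrain WNT target genes, read 7.22, 7.21, 5.86 and 5.61 in that order and was 3.02-fold lower, with a second probe at -1.01. Others among the 25 furthest below 0 were STC1, a secreted glycoprotein (at least 2.49-fold), SHISA2, of a family that in the frog holds back WNT and FGF receptors (at least 2.06-fold), the glucose transporter SLC2A12 (2.33-fold), the potassium channel KCNJ2 (at least 2.14-fold) and ST8SIA2, which adds polysialic acid to NCAM (at least 1.91-fold). GPRIN2, NABP1, SNPH and the long noncoding RNA MILIP were lower by log2 differences between -1.17 and -1.34.

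Of the higher genes outside the pathway lists, MMP16, a membrane-bound metalloprotease (at least 3.20-fold), GAD1, which makes GABA (3.08-fold, with 2 further probes at 1.00 and 1.39), LBH, a transcription cofactor of limb bud and heart (2.94-fold), and PIK3R1, the regulatory subunit of PI3 kinase (at least 2.66-fold), had log2 differences of 1.85, 1.73, 1.29 and 1.51 without BMP4. PLPP3, a lipid phosphatase (2.38-fold), and HAS3, a hyaluronan synthase (2.33-fold), belonged here as well, with 1.34 and 1.39 without BMP4. A further detected probe of LBH differed by only 0.54 with BMP4, under the limit. PITX1, a homeobox factor of the hindlimb, was detected on the combined array alone, at 5.95 against 4.69 on the BMP4 array. PTCHD1, a patched-domain membrane protein, was at least 1.63-fold higher.

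The comparison was set beside CHIR99021 minus untreated, a pair of arrays that shares none with it, although all 4 arrays were normalized together. Over the same genes 0.307% were higher by at least 1 and 0.55% were lower by at least 1 in that pair, and 49.2% were above 0. Of the 37 genes higher with BMP4, 34 were above 0 without BMP4 and 18 of these passed the size rule there as well. Of the 50 lower genes 47 were below 0 and 17 passed. The log2 difference was larger in size with BMP4 for 29 of the 37 and 38 of the 50, with medians of 1.46 against 0.88 and of -1.15 against -0.71. Since the genes were chosen by their values with BMP4, larger values on that side are built into the choice, and they include values below detection.

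**Figure D4:**
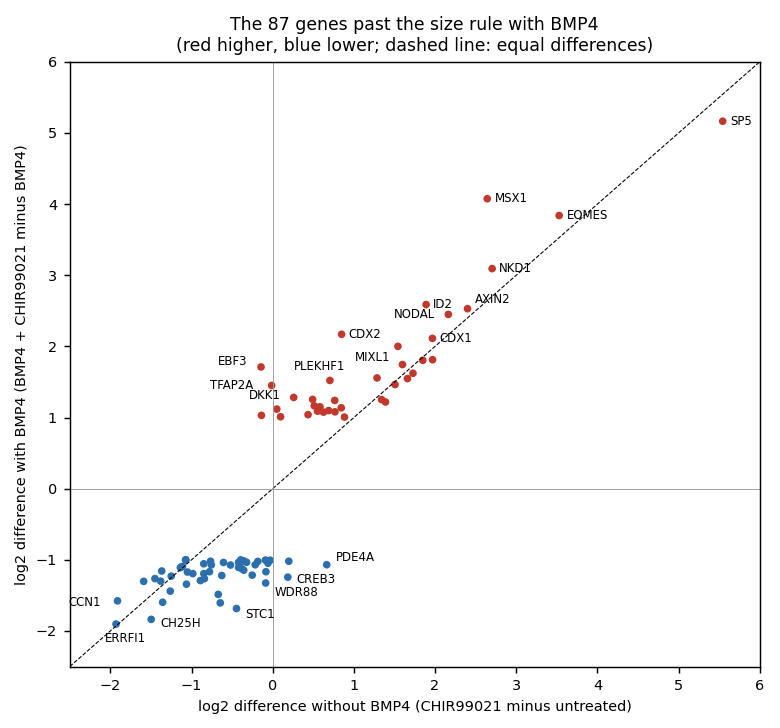
Log2 difference made by CHIR99021 without BMP4 (x axis) and with BMP4 (y axis) for the 87 called genes, with equal differences on the dashed line. AXIN2 and ERRFI1 lie near the line, and EBF3, TFAP2A and PDE4A lie far from it, at 1.71 against -0.14, 1.45 against -0.01 and -1.07 against 0.67; values below detection are drawn as measured.

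Differences near 0 without BMP4 were found for a small class of higher genes. Beside TFAP2A, DKK1 and NOTUM it held EBF3, a helix-loop-helix factor, which read 4.41 untreated, 4.44 with BMP4, 4.27 with CHIR99021 and 6.15 with both and was thus detected on the combined array alone, at least 2.29-fold above the BMP4 array. HOXD3, a HOX gene (1.01 against 0.10), and LOC102725080 (1.03 against -0.14) were also detected there alone. In total 6 of the 37 were below 0.3 without BMP4, 13 were between 0.3 and 1 and 18 passed. PLEKHF1, an endosomal phosphoinositide-binding protein, is an example of the middle class among genes detected on all arrays, with 6.94 untreated, 7.26 with BMP4, 7.64 with CHIR99021 and 8.78 with both. VCPKMT, a methyltransferase of the VCP chaperone (1.04 against 0.44), VPS18, a subunit of vesicle tethering complexes (1.09 against 0.55), and LAYN, a hyaluronan receptor (1.15 against 0.58), were of the same kind, whereas KBTBD8, a ubiquitin ligase adaptor of neural crest (1.14 against 0.84), and BRINP1 (1.01 against 0.88) were nearer to equal. A further detected probe of VCPKMT differed by only 0.34 with BMP4.

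Several of the lower genes with small differences without BMP4 were highest on the BMP4 array. EMP1, an epithelial membrane protein, read 7.48 untreated, 8.67 with BMP4, 7.27 with CHIR99021 and 7.60 with both, so that the combined array lay near the untreated array. PDE4A, a cyclic AMP phosphodiesterase, read 4.67 (not detected), 6.25, 5.34 and 5.18 in the same order. CREB3, a membrane-bound factor of the bZIP class, read 5.82, 6.58, 6.01 and 5.34. RGS3, a regulator of G protein signaling, read 6.01, 6.57, 6.21 and 5.55. On all 4 genes the BMP4 array was the highest, and that array is the one subtracted in the comparison. WDR88 (5.57) and ARID5B (5.59), a chromatin regulator, were detected on the BMP4 array alone.

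Across the lower genes, 15 of 50 were at least 0.5 higher on the BMP4 array than in untreated cells, against 438 of all 10732 genes (4.08%) and 4 of the 37 higher genes. The median of BMP4 minus untreated was 0.29 over the lower genes and 0.01 over all genes. The 2 differences share the BMP4 array with opposite sign, so a value that is by chance high on that array moves both, and the part of this in the lower genes was not tested. FES, a tyrosine kinase (-1.05 against -0.06), MTCL2 (-1.02 against -0.18), ARHGAP24, a GTPase-activating protein (-1.0 against -0.39), NIPAL3 (-1.03 against -0.40) and PLAU, the urokinase protease (-1.01 against -0.36), were further genes detected on all arrays with a smaller difference without BMP4.

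Few genes of other fates and of the undifferentiated state passed the size rule. Over all genes compared 0.345% were higher and 0.466% lower, so most lists of this length would hold none in any case. None of 18 detected pluripotency genes passed (median -0.06), with NANOG at 0.19 and SOX2 at -0.55. FOXD3, a factor of stem cells and neural crest, was at -0.62 with BMP4 and -1.53 without it. None of 14 detected Notch genes passed either (median 0.06), although HES1, the classical Notch target, read 7.72 untreated, 7.51 with BMP4, 6.39 with CHIR99021 and 7.74 with both, which is -1.33 without BMP4 and 0.23 with it. TFAP2A was the only gene past the limit among 12 detected genes of amnion, trophoblast and surface ectoderm (median 0.04), where the early BMP-responsive GATA3 was at 0.61. Of 7 neural, 4 endodermal, 9 fibroblast-like and 3 blood and endothelial genes that were detected, none passed, with medians of -0.36, -0.02, -0.13 and -0.22. Reference and ribosomal protein genes had a median of 0.06 over 13 genes, and cell cycle genes -0.00 over 16. Cadherins and genes of epithelial-mesenchymal transition (median 0.02 over 10) and FGF ligands and receptors (-0.15 over 7) held no gene past the limit either. Of 14 detected paired and other homeobox genes 2 were higher (median 0.19). These were MSX1, counted in the BMP-SMAD list as well, and PITX1, not detected on the BMP4 array.

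**Figure D5:**
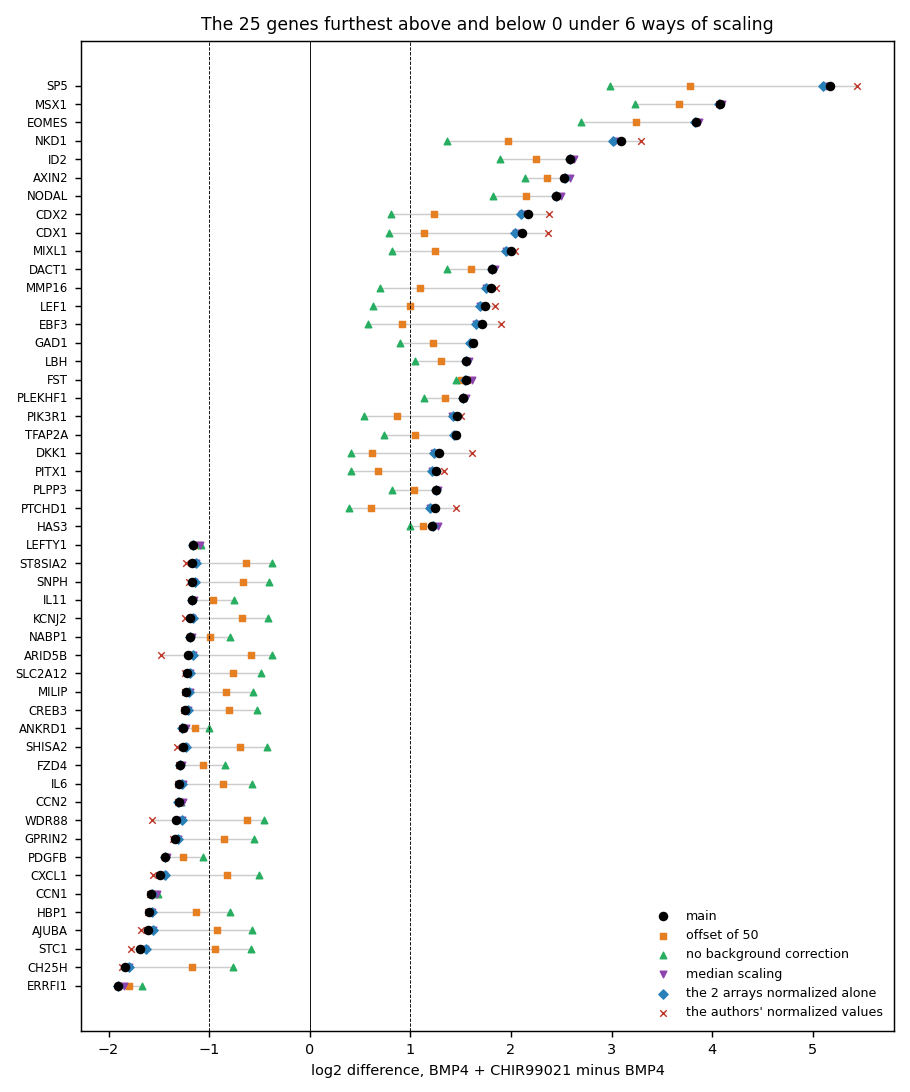
Log2 difference between the combined array and the BMP4 array (x axis) for the 25 genes furthest above 0 and the 25 furthest below 0 (y axis), under 6 ways of background correction and scaling (symbols). SP5 ranges from 2.98 to 5.44 and MSX1 from 3.23 to 4.10, while the dim gene DKK1 shrinks to 0.41 without background correction.

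The size of a difference depended on the background correction for dim genes, so the calls were compared over 6 ways of scaling. All 37 higher and all 50 lower genes kept their sign in each. The 6 ways start from the same arrays, and the genes were chosen for a difference of at least 1. A turn of sign was therefore unlikely from the start, and the kept signs are no check on the calls. SP5, MSX1, EOMES, NKD1, ID2, AXIN2, NODAL, DACT1, LBH, FST and PLEKHF1 (11 of 37) and ERRFI1, CCN1, PDGFB, CCN2, LEFTY1 and CYP26A1 (6 of 50) passed the size rule in every one. Brightness mattered as well. Among the 5366 genes above the median brightness 13 were higher and 16 lower, and among the 5366 dimmer genes 24 were higher and 34 lower, with an SD of all differences of 0.291 and 0.372. Further detected probes of the called genes bore the same sign in each case. Of 9 such probes of 8 higher genes, 7 passed the size rule, and those of LBH (0.54) and VCPKMT (0.34) did not. Of 8 such probes of 6 lower genes, 4 passed. Not called were 9 genes with a probe past the size rule upwards and 5 with one downwards that was not the chosen probe. A further 11 higher and 9 lower probes had no gene name.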

How the data were processed

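HuES6 RNA was amplified with biotin and hybridised to 4 Illumina HumanHT-12 V4 arrays, 1 per group, with groups taken from the labels. For 47321 probes, the authors deposited raw linear intensity values and, beside each, a detection p-value against negative controls. A further deposited table holds their normalized intensity values (each column's median 5.18), for which the methods name background subtraction and cubic spline normalization in GenomeStudio (version not stated); their scale is linear, and the handling of values at 0 is not known. Raw intensities were background-corrected by normexp (limma 3.58.1, R 4.3.3) from the detection p-values, with an offset of 16, then quantile-normalized over the 4 arrays and log2-transformed. The offset shrinks differences of dim probes.

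A platform table gave 1 symbol for 30112 probes, several for 8, left unnamed, and does not list 17201. Of 30120 listed, 30073 symbols were updated by Entrez ID through RefSeq of GRCh38.p14. On either of the 2 arrays 17670 probes (37.3%) were detected, and each gene took its probe with the highest mean over 4 arrays. For a probe below detection on the dimmer array, the fold was taken against the higher of its own value and the lowest detected value on that array, and is given as "at least".

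Genes named are the 25 furthest from 0 each way, genes of 24 lists (277 of 446 genes detected), genes past the size rule at 2 or more probes, and the 8 each way, detected on all arrays, with the smallest or opposite difference without BMP4. HOXD3, LOC102725080, FLRT3 and THBS1 were named after their values were seen. The comparison and the lists were chosen with earlier results of these data known, so they are described and not tested. The calling steps were checked on simulated copies of the BMP4 array in which only bright probes were changed, by 1.5 or more. Calls of dim genes and calls near the limit were not checked in this way. Alternatives were an offset of 50, no background correction, median scaling, normalization of the 2 arrays alone, the authors' values as log2 of the value plus 16, other detection rules, the mean of all detected probes and a size of 1.5.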

Additional observations from a re-analysis of the deposited data

Results flagged for a closer look

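CHIR99021 differences of opposite sign with and without BMP4 were found for 6 of the 87 called genes. The differences between the 2 settings were not tested, and each rests on 1 array per group. EBF3 was at 1.71 with BMP4 and -0.14 without it, TFAP2A at 1.45 and -0.01, and LOC102725080 at 1.03 and -0.14, and in each case neither array without BMP4 detected the probe. CREB3 was at -1.24 with BMP4 and 0.19 without it, PDE4A at -1.07 and 0.67, and RGS3 at -1.02 and 0.20, and for these 3 genes the BMP4 array was the highest of the 4. PDE4A was not detected in untreated cells, so its difference without BMP4 is known only as at least 1.32-fold.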

How the results depend on the processing

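The 37 higher genes became 19 with an offset of 50, 11 without background correction, 56 with the authors' normalized values, 18 when detection on both arrays was required and 18 at a size of 1.5. The 50 lower genes became 10 with an offset of 50, 6 without background correction, 69 with the authors' normalized values and 6 at a size of 1.5. The share of higher genes among all calls was 42.5%, against 65.5% with an offset of 50, 64.7% without background correction and 75% at a size of 1.5. Median scaling gave 36 higher and 41 lower genes (35 and 41 of them shared), the 2 arrays normalized alone 35 and 43, detection p below 0.05 gave 37 and 50, and the mean of all detected probes 36 and 49. With detection required on both arrays 35 genes were lower. The larger offset and the missing background correction compress dim probes by construction. The median of the CDX and HOX list was -0.43 where both arrays had to detect a gene, since CDX1 and CDX2 were then left out. List medians kept their sign in all 6 scalings except those of BMP ligands, definitive endoderm and cell cycle genes, all near 0.

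No paired analysis was possible because each group holds 1 array, and leaving out an array was not possible. Depth cannot be given for arrays, and values near 5 on the log2 scale are at the limit of detection.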
